A study of Mus musculus with 2 samples.

Results

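Krt75 cells of mouse dorsal skin were examined on postnatal day 3, with 1 library from control mice and 1 from mice whose genotype is given as miR-200b induced. A barcode counted as a Krt75 cell when it had at least 1000 UMIs (unique molecular identifiers, each standing for 1 captured RNA), at least 500 genes and under 15% mitochondrial UMIs. It also needed at least 5 Krt75 UMIs per 10000. Limits per 10000 UMIs were set against other types. Krt1 plus Krt10 had to be under 50, and Col1a1 plus Col3a1 under 20. The inner sheath and shaft keratins Krt25, Krt27, Krt28, Krt71 and Krt35 together had to be under 20. A further shaft keratin of the rule, Krt85, was not analysed here. The rule took 62 of the 10436 barcodes that passed the quality limits, namely 25 of 5178 control barcodes and 37 of 5258 induced barcodes. Per the labels, the control mice were Wildtype, both groups had the treatment Dox, and neither the induction construct nor the number of animals is described. Epidermis and dermis with its hair follicles were dissociated apart and mixed 30 to 70 before droplet capture, so the share of any cell type depends on that mixing. With 1 library per group no test was possible, and every interval below is a 95% interval for counting error only.

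The companion layer is a single sheet of flat cells between the outer root sheath and the inner root sheath of the hair follicle. Krt75 is its classical keratin, paired with type I keratins such as Krt17. The layer is bound to the inner root sheath that moves up with the growing hair. Krt79, by contrast, is known from the upper follicle, where its cells line the opening of the hair canal, while Krt14 and Krt5 mark the basal, anchored cells.

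Krt75 cells made up 0.483% (0.313 to 0.712) of kept control barcodes and 0.704% (0.496 to 0.969) of kept induced barcodes, and the intervals overlapped. Their depth ran from 1047 to 176788 UMIs in the control library, with a median of 19255, and from 1027 to 170137 UMIs in the induced library, with a median of 20718. The 5 deepest cells held 52.7% of the control UMIs and 47.1% of the induced ones, so summed levels rest largely on few cells. Cells with at least 50000 UMIs numbered 10 of 25 and 11 of 37, against 3.38% and 6.22% of all kept barcodes. The part of multiplets in this depth was not tested, and 4 control cells and 1 induced cell were among the 7% of barcodes with the highest doublet scores. The libraries shared 74 barcodes, 1 of them a Krt75 cell in both (1047 and 1027 UMIs), and without it 538 genes in place of 533 passed the 2-fold limit used below. Krt75 values near the limit were 5.74 and 5.42 per 10000 for the lowest members, and 4.96 and 4.88 for the highest cells outside. Between 5 and 10 per 10000 lay 15 control and 13 induced members.

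Krt75 itself stood at 1195 CPM (counts per 1000000 UMIs, summed over cells) in the control members and 2598 CPM in the induced ones. This level follows from the rule and is a description. Per cell, Krt75 ran from 5.74 to 57.9 per 10000 in the control library, median 8.53, and from 5.42 to 182 in the induced library, median 12.97. The ranges overlapped widely, and 4 induced cells passed 100 per 10000. Outside the members, cells with at least 5 Krt79 UMIs per 10000 (the Krt79 gate, under the same other limits and with under 5 Krt75 UMIs) held 26.9 and 35.8 CPM of Krt75, and cells gated on the outer root sheath factors Lhx2, Tbx1 and Lgr5 held 11.2 and 10.4 CPM. The gates can share cells with each other, but none holds a Krt75 cell. Gated fibroblasts gave a background of 0.987% and 0.717% of cells with a Krt75 UMI, at median depths of 9398.5 and 6450 UMIs.

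The label of companion layer held only in part. Krt79 stood at 11476 CPM in control members and 11085 CPM in induced members. Counts of 3′ ends do not grow with transcript length, so the levels can be set beside the Krt75 values, and Krt79 was the more abundant keratin. It was above Krt75 in 19 of the 25 control cells and in 29 of the 37 induced cells. Krt79 was even denser in the members than in the Krt79 gate, at 5642 and 8923 CPM there. With every cell thinned to 2000 UMIs, 87.5% (67.6 to 97.3) of control members and 85.3% (68.9 to 95.05) of induced members had a Krt79 UMI, against 8.44% and 12.2% of gated fibroblasts. The cells are therefore called by their rule, as Krt75 cells.

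Cells with under 5 Krt79 UMIs per 10000 numbered 6 in each library. Their median Krt75 was 8.30 per 10000 in the control and 29.1 in the induced library, and their median Krt17 was 177 and 282. Their median Krt14 was 206 in the control and 26.9 in the induced library, so these small sets also differed in the basal keratin. Among cells at or above that Krt79 level, median Krt75 was 9.56 and 12.2. Of these Krt79-low cells, 1 control cell of 22281 UMIs carried 57.9 Krt75 UMIs per 10000 together with 187 of the inner sheath gene Tchh, and had no Krt79 UMI.

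**Figure D1:**
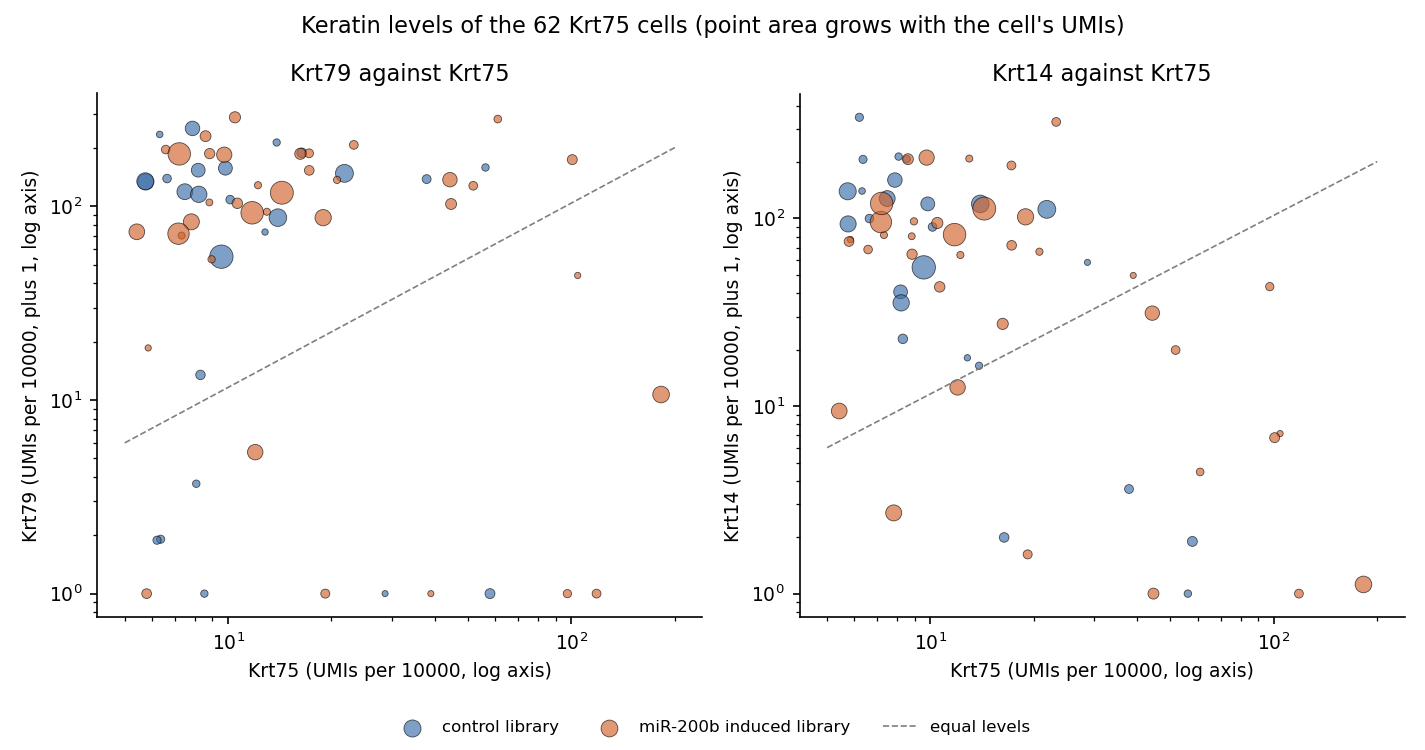
Each point is 1 of the 62 Krt75 cells, with Krt75 in UMIs per 10000 on the horizontal log axis and Krt79 (left) or Krt14 (right), plus 1, on the vertical log axis, and the dashed line marks equal levels. Krt79 lay above Krt75 in 19 of 25 control cells and 29 of 37 induced cells, and Krt14 fell away in the cells with the most Krt75.

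Within the members, Krt14 was low where Krt75 was high. Over cells with at least 5000 UMIs the Pearson correlation of the log2 levels was -0.82 in 22 control cells and -0.57 in 33 induced cells, given as a description because the cells share a library and the rule used Krt75. Krt14 ran from 0 to 345 per 10000 in control cells, median 92.5, and from 0 to 326 in induced cells, median 65.5. Krt5, its basal partner, had medians of only 9.11 and 10.98 per 10000. Summed, Krt5 stood at 1295 and 1222 CPM in the members and at 4718 and 4215 CPM in the other epithelial cells, while Krt14 was near the other epithelial cells at 9255 and 7781 CPM against 9748 and 8652 CPM.

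The other 4 labelled markers were uneven. Pinlyp, a small secreted protein of the Ly6 family, stood at 1303 CPM in control members and 1636 CPM in induced members, against 16.5 and 21.5 CPM in the outer root sheath gate and 782 and 319 CPM in the Krt79 gate. Its median per cell was 1.35 and 4.004 per 10000, and 9 control and 8 induced cells had none. Krt6a, a keratin of the companion layer and of wounded skin, stood at 290.1 and 1485 CPM. Klk10, a kallikrein-related secreted protease, stood at 102.6 and 2298 CPM. Cst6, an inhibitor of cysteine proteases made by cornifying cells, stood at 159 CPM in control members, below the 1469 CPM of other control epithelial cells, and at 15743 CPM in induced members. Cst6 thus did not mark the control Krt75 cells.

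**Figure D2:**
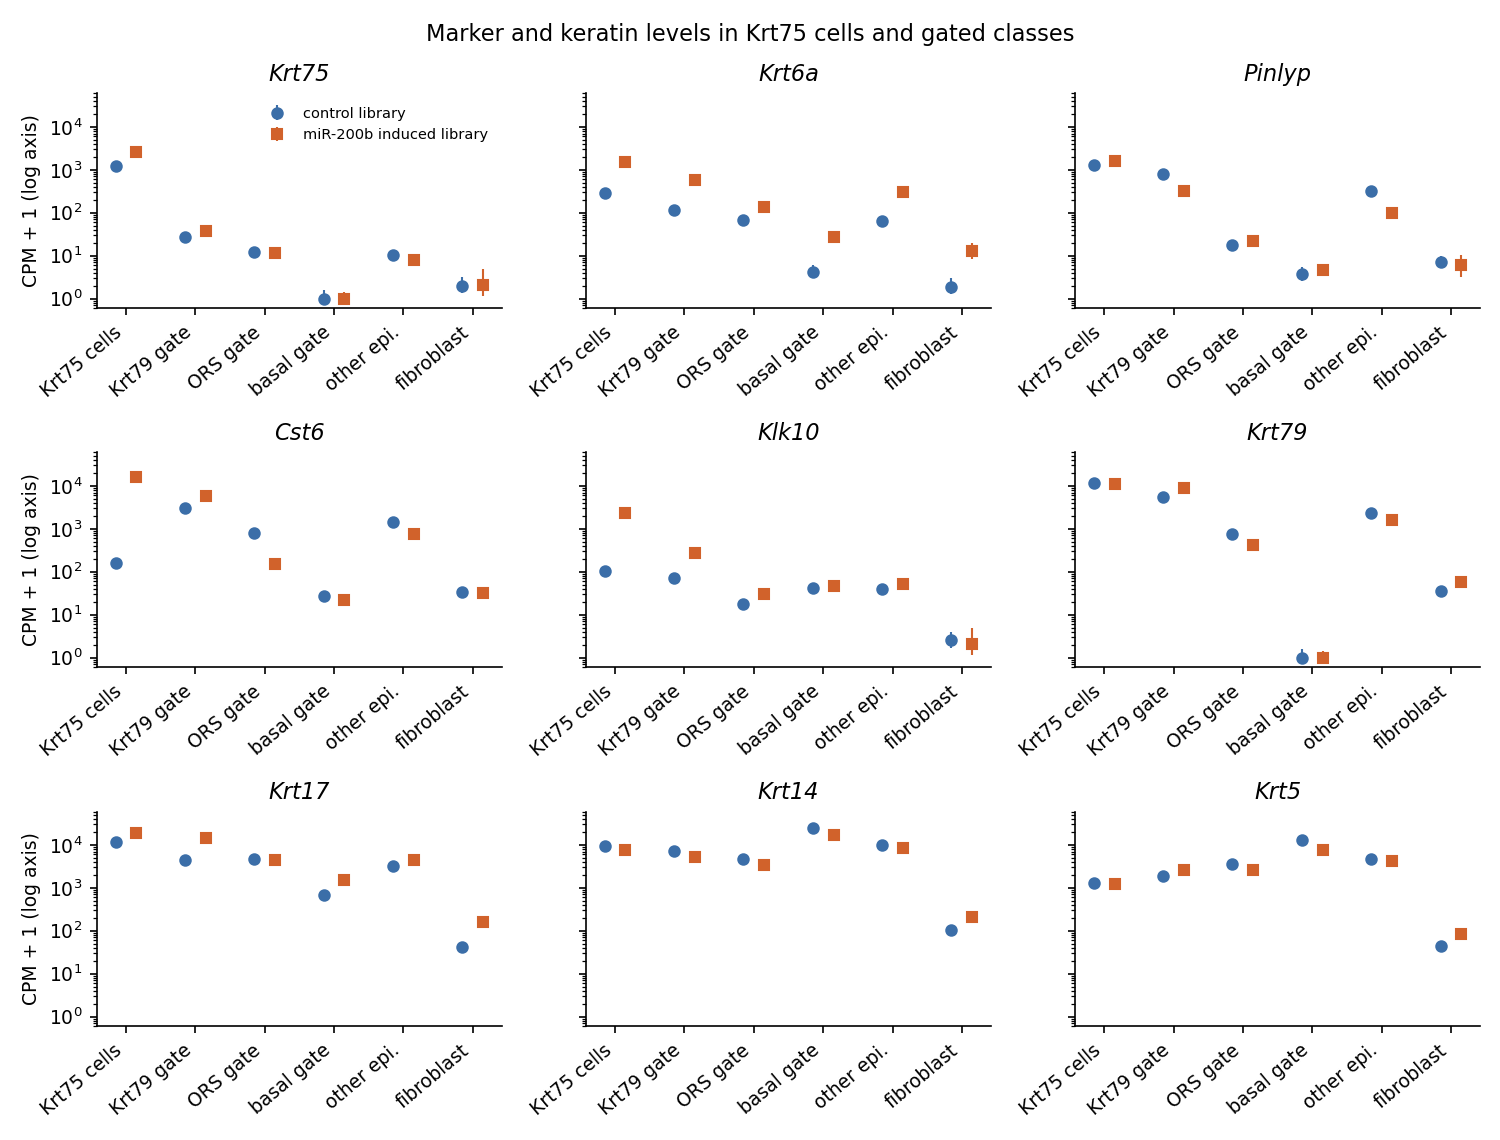
Each panel gives 1 gene, with CPM plus 1 on a log axis and, from left to right, Krt75 cells, the Krt79 gate, the outer root sheath (ORS) gate, the basal interfollicular gate, other epithelial cells and gated fibroblasts; circles are the control library, squares the induced library, and bars exact Poisson 95% intervals. Krt79 and Pinlyp were highest in Krt75 cells among these classes, and Cst6 differed most between the libraries.

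Genes shared by the members beyond the rule were sought against all other epithelial cells of the same library. Because the same cells were chosen on Krt75, this comparison is a description. Of 5534 genes with at least 20 CPM on average and 50 UMIs, 307 were at least 2-fold higher in both libraries (5.55%) and 94 at least 2-fold lower (1.70%), after 5 CPM had been added to each level. The 20 CPM limit was set on the level in the members, so genes low in them and high in other epithelium were mostly left out, and the split between higher and lower genes is not read. The leading gene was Tm4sf1, a small membrane protein of the tetraspanin-like L6 family. It stood at 614 CPM against 18.8 CPM in other control epithelium and at 821 CPM against 14.7 CPM in other induced epithelium. The thyroid and follicle transcription factor Foxe1 was also far higher, at 151 against 6.90 CPM and 134 against 3.27 CPM.

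Secreted signals and guidance molecules were among the 20 leading genes. Inhba, the activin subunit, stood at 203 and 85.1 CPM in members, against 9.87 and 3.05 CPM in other epithelium, and was called lower in the comparison of libraries given below. Wnt11, a noncanonical Wnt ligand, stood at 52.7 and 90.9 CPM against 1.86 and 1.42 CPM, and was seen in 48% and 54.1% of members. The guidance ligand Slit3 stood at 71.3 and 45.4 CPM against 4.06 and 1.36 CPM. Tgfa, a ligand of the EGF receptor, stood at 91.8 and 98.04 CPM against 9.40 and 11.4 CPM.

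Adhesion genes formed another part of the shared profile. Alcam, a cell adhesion molecule of the immunoglobulin family, was the most abundant of the 20, at 1599 and 1443 CPM against 218 and 180 CPM, with UMIs in 88% and 89.2% of cells. Nectin3 stood at 157 and 234 CPM against 24.3 and 34.4 CPM. Of 29 listed desmosome and junction genes, 22 were tested. Of these, 8 were raised in both libraries and 0 lowered, against 5.55% and 1.70% of all tested genes. The 8 were the desmosomal Dsg1a, Dsg3 and Jup, the tight junction genes Cldn1, Cldn4 and Ocln, the gap junction gene Gjb2, and Epcam. Perp, a desmosomal membrane protein, was the most abundant of the list at 3990 and 4314 CPM, against 1810 and 2306 CPM in other epithelium. Of 8 tested genes that hold cells to the basement membrane, out of 16 listed, 0 were raised and 3 lowered, against the same shares. The 3 were Itga6, Col17a1 and Dst. Genes were tested on their level in the members, so raised and lowered counts of this and other lists are descriptions. Col17a1, a hemidesmosomal collagen, stood at 40.04 and 20.8 CPM in members against 221 and 302 CPM in other epithelium.

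Of 12 tested keratins, Krt17, Krt6a, Krt79, Krt80, Krt7, Krt19 and Krt23 were raised over other epithelium, where 5.55% of all genes were, while the level of Krt75 was fixed by the rule and Krt5 and Krt16 were lowered. The simple-epithelial keratins Krt19, at 99.6 and 132 CPM against 2.56 and 14.5 CPM, and Krt7, at 106 and 195 CPM against 12.3 and 14.1 CPM, were present in under 50% of the members in each library. Of 19 tested follicle regulators, Sox9, Foxc1, Foxe1, Gata6, Runx1 and Hoxc13 were raised and 0 were lowered. Sox9, a transcription factor of the outer root sheath and its stem cells, stood at 1048 and 912 CPM against 340.2 and 217 CPM. Hoxc13, known for hair keratin control, stood at 117 and 61.7 CPM against 27.8 and 11.1 CPM.

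The transcript of the Mir200b locus was then checked in these cells. Gm13648 (ENSMUSG00000086549, GRCm38 chr4:156052715-156059802, minus strand) is a noncoding gene whose intron holds Mir200b (chr4:156055681-156055750) and whose exon 2 holds Mir429. Control members held 6 Gm13648 UMIs in 3 cells, 5.86 CPM (2.15 to 12.8). Induced members held 75 UMIs in 9 cells, 48.7 CPM (38.3 to 61.0), and 63 of these UMIs lay in 1 cell of 70860 UMIs that was among the barcodes with the highest doublet scores. Without that cell the induced members stood at 8.17 CPM (4.22 to 14.3), an interval that overlapped the control one.

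The other epithelial cells of the induced library held 536 CPM (532 to 541) of Gm13648, against 2.29 CPM in the control library. Within the induced library it stood at 721 CPM in basal interfollicular cells, gated on Krt5 and Krt14 without Sox9, Krt75 or Krt79 UMIs. It stood at 418 CPM in the outer root sheath gate, at 288 CPM in the Krt79 gate and at 14.8 CPM in gated fibroblasts. Krt75 cells thus had the lowest level of Gm13648 among the epithelial classes named here, both with and without the 1 deep cell. Thinned to 2000 UMIs per cell, 11.8% (3.30 to 27.5) of induced members had a Gm13648 UMI, against 34.6% (30.3 to 39.1) of the Krt79 gate and 56.6% (55.0 to 58.1) of other epithelial cells. Chosen after these values were seen, Krt79-gated cells with under 20 Krt5 UMIs per 10000 held 152 CPM of Gm13648 in the induced library, and those with more Krt5 held 389 CPM. Among induced members, the 21 cells with at least 50 Krt14 UMIs per 10000 held 6.02 CPM, and the 16 cells below that held 127 CPM, with 63 of their 69 UMIs in the 1 deep cell. Mature microRNAs are not read by these libraries, and Ttll10, whose span overlaps that of Gm13648 with the same orientation, had 3 UMIs in the members of each library.

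**Figure D3:**
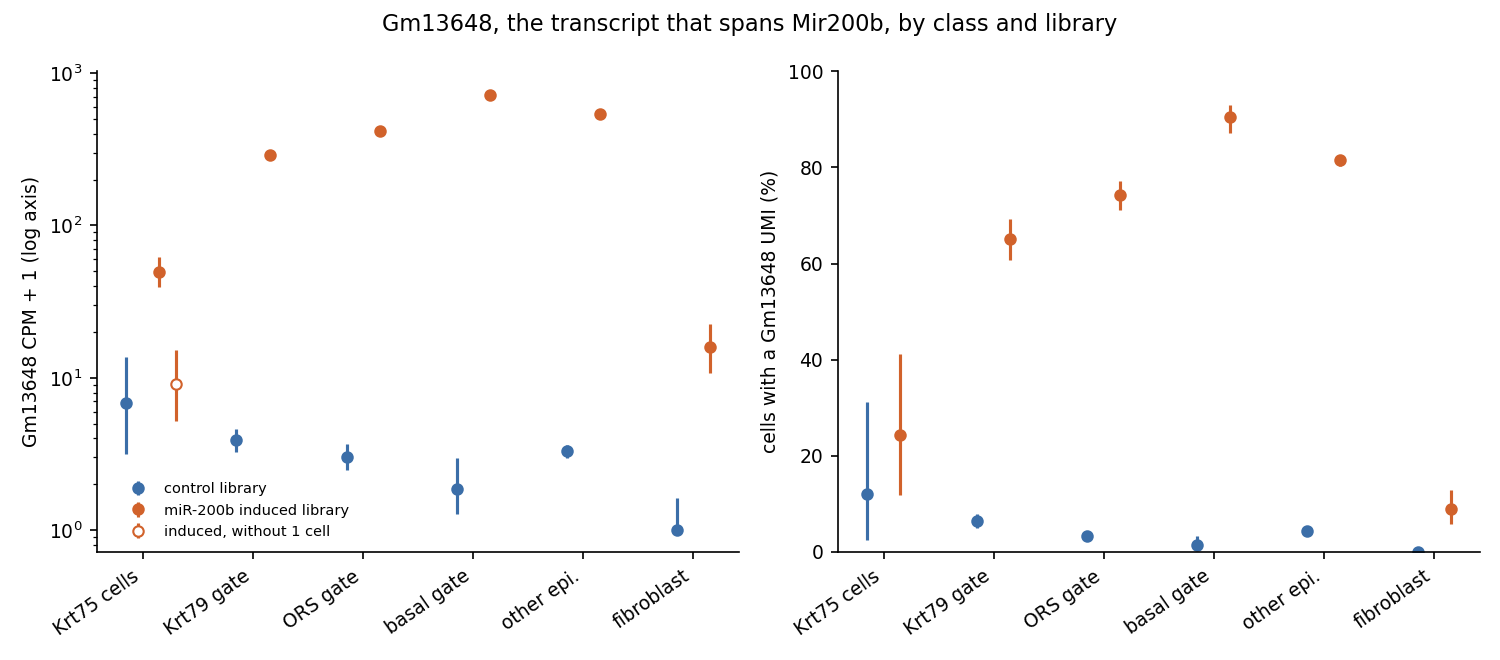
Gm13648 in CPM plus 1 on a log axis (left, exact Poisson intervals) and as the unthinned percentage of cells with a UMI (right, Clopper-Pearson intervals), by class, where filled points are the libraries by colour and the open point is the induced Krt75 cells without 1 cell. Induced Krt75 cells stood at 48.7 CPM, or 8.17 CPM without that cell, below the 288 CPM of the Krt79 gate.

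Levels in Krt75 cells were compared between the libraries. A gene was called when its log2 ratio of CPM plus 5, induced over control, differed by at least 1 from that of the median gene, which stood at -0.11. Of the 5534 genes, 533 were called (9.63%), 338 higher (6.11%) and 195 lower (3.52%) in the induced library. Without centring on the median gene the split was 281 higher and 252 lower. As few cells held much of the sum, the ratio was also taken of the mean CPM over cells, and 241 genes were higher (4.35%) and 144 lower (2.60%) by both measures. These 385 were 72.2% of the called genes, and 7 called genes had the opposite sign by the cell mean. In cells under 50000 UMIs, 233 genes were called. Intervals of single ratios are for the ratio without the added 5 CPM.

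**Figure D4:**
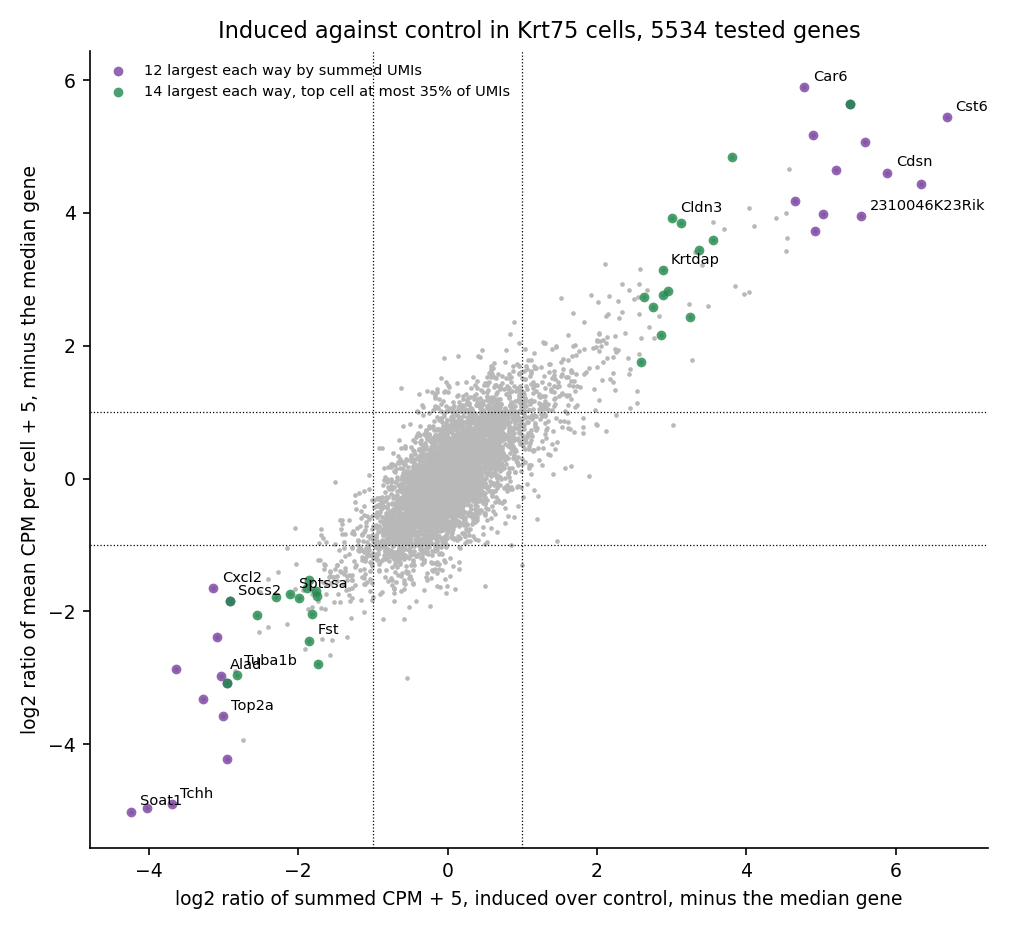
Each point is 1 of 5534 genes in Krt75 cells, with the log2 ratio of summed CPM plus 5 (horizontal) and of the mean CPM per cell plus 5 (vertical), induced over control and centred on the median gene; dotted lines mark 2-fold, purple points the 12 largest each way, and green points the largest whose deepest contributing cell held at most 35% of the UMIs. Both measures called 241 genes higher and 144 lower.

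Among the 12 genes furthest higher in the induced library were cornification genes such as Sprr1a, Crct1 and 2310046K23Rik, and also Serpina1a, Defb6, Slc46a2 and Car6. Serpina1a, a secreted protease inhibitor, had 0 control UMIs and 335 UMIs in 10 induced cells, at least 74.2-fold higher, with 65.7% of them in 1 cell. The 2310046K23Rik ratio over the median gene went from 5.54 to 0.58 in cells under 50000 UMIs, and that of Sprr1a from 6.35 to 2.57 with the Krt75 limit at 10 per 10000. Cst6 led by sums with 5 CPM added, with 159 CPM in control and 15743 CPM in induced members. The log2 ratio was 6.58 (6.41 to 6.86), and 6.69 over the median gene. Its place depends on the measure, as by cell means Car6 stood at 5.90 and Cst6 at 5.45. Serpina1a and Prr9 had 0 control UMIs, so their ratios are lower bounds and are not ranked against Cst6. The excess sat in few cells: 7 induced cells and 0 control cells passed 50 per 10000, the highest 2004, while the medians were 0.546 and 1.47. That highest cell, of 76766 UMIs, held 63.4% of the Cst6 UMIs, and without it the induced level was 6056 CPM. In cells under 50000 UMIs the log2 ratio over the median gene was 0.95, inside the 2-fold limit.

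The same deep cell also held the most UMIs of Sprr1a, Crct1, Cdsn, Klk10, Spink5, 2310046K23Rik, Dnase1l2 and Slc46a2. Sprr1a, a cornified envelope precursor, went from 33.2 to 2878 CPM, and Crct1, a late cornification gene, from 85.0 to 3066 CPM. Without that cell the induced levels were 1603 and 1432 CPM. Rptn, a granular layer protein, had 159 UMIs, all in that cell, and 0 UMIs in control members.

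Cdsn was found in more induced than control cells, with its highest levels in few. This gene encodes corneodesmosin, an adhesion protein added to desmosomes as skin cells cornify. It was present in 3 of 25 control cells and 26 of 37 induced cells, at 5.86 and 593 CPM, a log2 ratio of 5.78 (5.53 to 8.11). The median per induced cell was 0.760 per 10000, and 4 cells stood apart at 42.7, 87.8, 90.4 and 101 per 10000. The cell means, 40.3 and 1087 CPM, rest on few cells in the induced library and largely on 1 shallow cell of 1047 UMIs in the control library. That cell has the barcode that was a member in both libraries, with 9.55 Cdsn UMIs per 10000 in the control and 19.5 in the induced library. The Cdsn ratio over the median gene stayed between 4.09 and 6.55 in all alternatives run. In the Krt79 gate Cdsn stood at 90.6 and 89.9 CPM. The outer root sheath gate stood at 9.36 and 3.67 CPM, the opposite direction to the members. Other epithelial cells stood at 42.3 and 115 CPM, the same direction as in the members.

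Krtdap was higher over most of the cells. It encodes a small secreted peptide of differentiating keratinocytes and stood at 328 CPM in control members and 2272 CPM in induced members, with cell means of 261 and 2302 CPM. Per cell it ran from 0 to 15.3 per 10000 in the control library, median 0.909, and from 0 to 104 in the induced library, median 14.6. The induced cells reached far above the control range but also overlapped it. Its log2 ratio was 2.77 (2.63 to 2.96), and over the median gene it stayed between 2.67 and 3.38 in all alternatives. The Krt79 gate differed in the same direction, at 878 and 2489 CPM, and the outer root sheath gate stood at 174 and 259 CPM.

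Of 15 tested cornification genes, out of 25 listed, 10 were called higher, 9 of them also by the cell mean, against 6.11% and 4.35% of all tested genes, and 0 lower. A gene near 0 in 1 library passes the level limit only through the other, where it has to be higher, so counts and medians of tested members are descriptions here and in the lists that follow. Their median log2 ratio over the median gene was 1.57, against 0 for all tested genes by construction. Among granular layer genes, Flg, Flg2, Cdsn and Rptn reached the level limit through the induced library, with 2.93, 0, 5.86 and 0 CPM in control members, so no count is read from them. All 159 Rptn UMIs lay in 1 induced cell. Flg2 had 0 control UMIs and 115 induced UMIs in 6 cells, at least 25.5-fold higher against the level of 3 counts in the control sum. Sbsn, a suprabasal secreted protein, went from 1276 to 3183 CPM, with UMIs in 23 of 25 and 36 of 37 cells. Its ratio over the median gene was 1.42, but 0.81 in cells under 50000 UMIs and 0.91 with the Krt75 limit at 10 per 10000. The spinous keratins Krt1 and Krt10 were limited by the rule and are not compared.

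Of 22 tested proteases and inhibitors, out of 41 listed, 15 were higher by sums and 8 also by cell means, against 6.11% and 4.35% of all genes. The other 7 were not called, and 0 were lower. Klk10 had a log2 ratio of 4.42 (4.21 to 4.78). Its highest cell held 8.54 per 10000 among control cells and 234 among induced cells, and 16 control and 24 induced cells had a UMI. In induced cells Klk10 followed Cst6, with a Pearson correlation of 0.88 over 33 cells, against 0.30 over 22 control cells, as a description. The Spearman values were 0.73 and -0.19, so the direction in control cells depends on the measure. The kallikreins Klk5, Klk6 and Klk7 and the membrane proteases Prss8 and St14 were also called higher, St14 by sums only. Spink5, the kallikrein inhibitor LEKTI, went from 12.7 to 408 CPM, in 6 and 13 cells. Lysosomal cathepsins were higher too, with Ctsd at 900 and 2068 CPM in 24 and 36 cells, though by cell means its ratio of 0.95 missed 2-fold, as did that of 0.69 in cells under 50000 UMIs.

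Of 12 tested keratins out of 22 listed, Krt6a, Krt16, Krt80, Krt23 and Krt75, the last of them fixed in part by the rule, were called higher and 0 lower, against 6.11% and 3.52% of all tested genes. Krt80 fell inside 2-fold, at 0.92, with the Krt75 limit at 10 per 10000, and Krt75 did so in 3 settings, down to 0.50 in cells under 50000 UMIs. Krt6a was present in 17 of 25 control cells and 34 of 37 induced cells, with medians of 0.802 and 11.6 per 10000. Its ratio over the median gene was 2.44 by sums and 1.07 by cell means, but 0.33 in cells under 50000 UMIs. Krt16, a stress-associated partner of Krt6a, went from 46.9 to 209 CPM. Other epithelial cells differed in the same direction, at 62.2 and 310 CPM for Krt6a and 100.1 and 762 CPM for Krt16. In the members Krt17 stood at 11750 and 18705 CPM, 0.78 over the median gene, and Krt79 differed by 0.06. Krt15, a keratin of basal and stem cells, stood at 2512 and 1897 CPM in the members, against 7952 and 252.5 CPM in basal interfollicular cells. Its ratio over the median gene was -0.30, but 2.55 in cells under 50000 UMIs, the other direction.

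**Figure D5:**
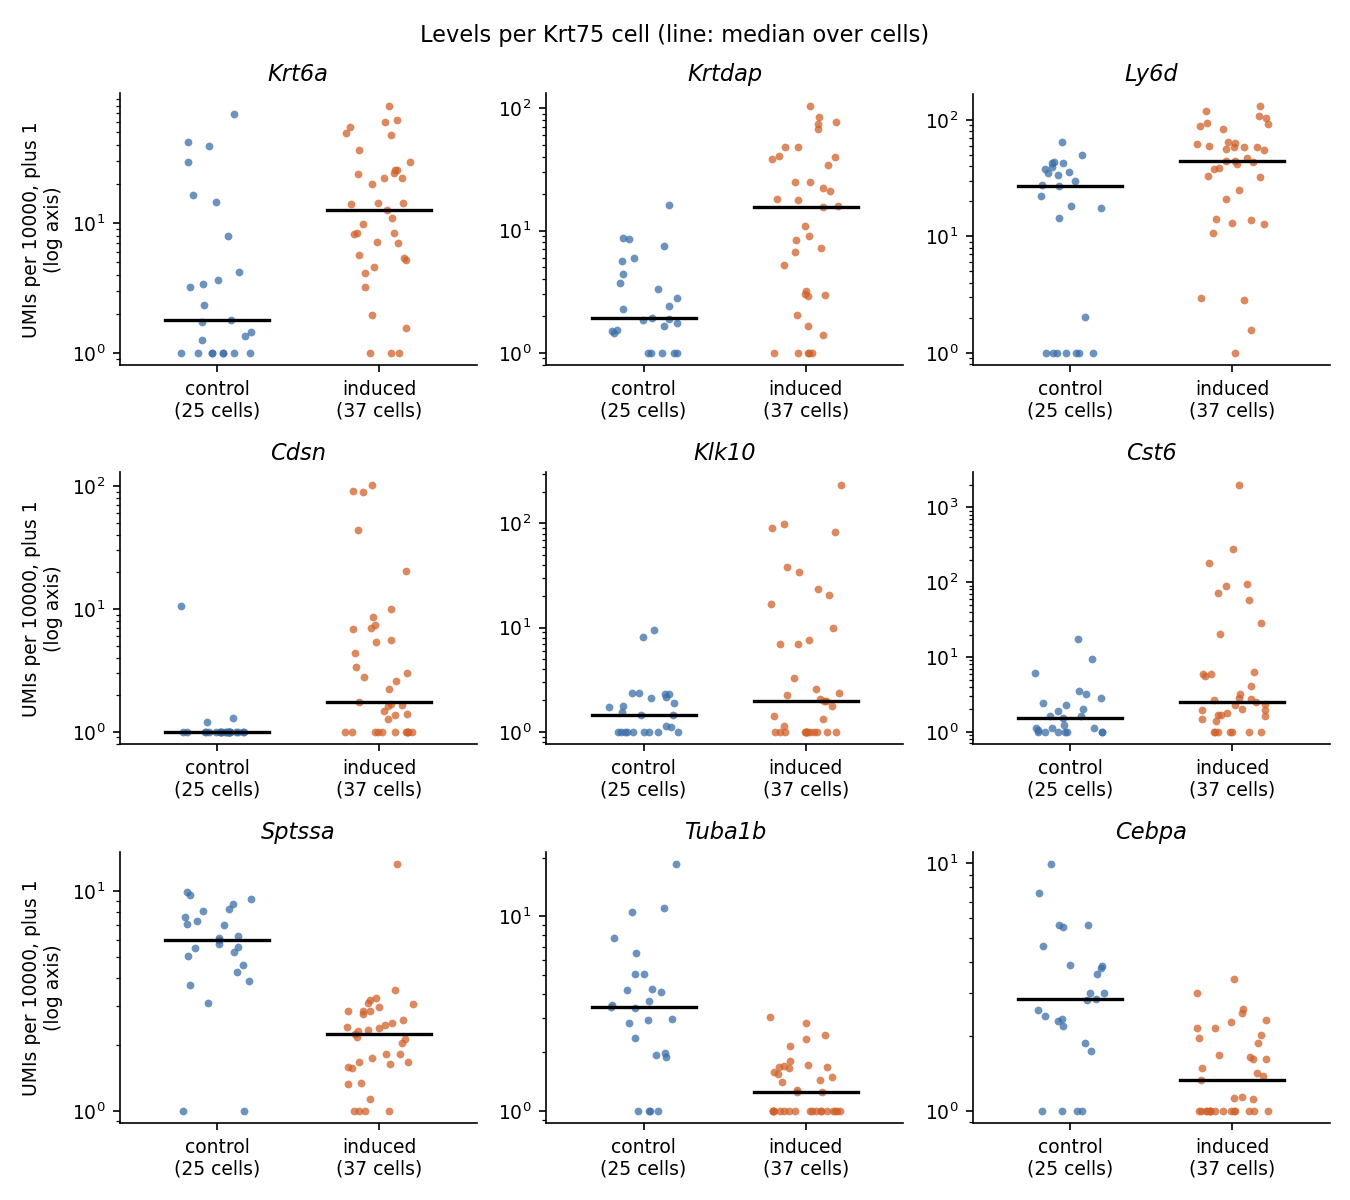
Each point is 1 Krt75 cell, with UMIs per 10000 plus 1 on a log axis, in the control library (25 cells) and the induced library (37 cells), and lines mark medians. The induced median was higher for Krtdap (14.6 against 0.909) and Krt6a (11.6 against 0.802), and lower for Sptssa, Tuba1b and Cebpa, while Cst6 and Klk10 had a few very high induced cells.

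Among genes called by both measures, 179 higher and 95 lower ones had no cell with over 35% of the UMIs in the library where they were higher. This limit was chosen after the values were seen. Prr9, a proline-rich protein of cornifying epithelia, led them with 0 UMIs in control members and 293 in 9 induced cells, at least 64.9-fold higher. Prlr, the prolactin receptor, had 0 control UMIs and 76 UMIs in 20 induced cells, at least 16.8-fold higher. In the Krt79 gate Prlr stood at 104 and 17.6 CPM, the opposite order, and in the outer root sheath gate at 13.6 and 33.7 CPM, the same order. Atp1b1, a subunit of the sodium pump, went from 6.84 to 149 CPM and from 4 to 18 cells. Cldn3, a tight junction claudin, went from 14.7 to 141 CPM, with 16.1 and 10.5 CPM in the Krt79 gate and 3.65 and 10.8 CPM in the outer root sheath gate. Cpe, a carboxypeptidase that processes peptide hormones, went from 69.3 to 496 CPM, and Map1b, which binds microtubules, from 18.6 to 142 CPM. Both differed in the same direction in the Krt79 gate, at 203 and 390 CPM for Cpe and 28.1 and 104 CPM for Map1b. The outer root sheath gate did so too, at 41.6 and 178 CPM for Cpe and 27.1 and 182 CPM for Map1b.

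Sptssa, a small subunit of the enzyme that starts sphingolipid synthesis, was among the genes lower over most cells. Its UMIs were found in 23 of 25 control cells and 33 of 37 induced cells. It stood at 561 and 117 CPM, a log2 ratio of -2.21 (-2.51 to -2.02), with cell means of 499 and 144 CPM. Per cell its median was 4.98 per 10000 in the control library, with a range of 0 to 8.89, and 1.24 in the induced library, with a range of 0 to 12.3. The induced upper quartile of 1.83 lay below the control lower quartile of 3.59. Sptssa was lower in the epithelial gates too, at 626 and 75.6 CPM in the Krt79 gate, 267 and 51.6 CPM in the outer root sheath gate and 344 and 81.9 CPM in basal cells.

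Tuba1b, an alpha-tubulin that rises with proliferation, stood at 400.4 and 47.4 CPM, a log2 ratio of -2.95, with medians of 2.42 and 0.245 per 10000. Stmn1, which destabilises microtubules, stood at 344 and 49.99 CPM, against 452 and 103 CPM in other epithelium. Slc25a4, the mitochondrial ADP/ATP carrier, stood at 183 and 46.1 CPM, against 322 and 81.1 CPM in other epithelium. Cebpa, a transcription factor of epidermal and sebaceous differentiation, stood at 259.8 and 64.9 CPM, with UMIs in 21 of 25 and 22 of 37 cells. Over the median gene, Cebpa stayed between -2.04 and -1.64 in all alternatives, and the Krt79 gate stood at 307 and 83.7 CPM.

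Gm20383, a noncoding gene, was present in 11 control cells and 2 induced cells, at 47.9 and 1.30 CPM, against 2.36 and 0.893 CPM in the Krt79 gate. Tspan2, a tetraspanin, stood at 52.7 and 8.44 CPM, against 3.71 and 0.687 CPM in other epithelium, but its ratio over the median gene went from -1.99 to -0.94 in cells under 50000 UMIs. Cd200, an immune-modulating surface protein, stood at 89.9 and 21.4 CPM, while the Krt79 gate stood at 31.3 and 42.7 CPM and the outer root sheath gate at 29.1 and 69.7 CPM. Fst, the activin and BMP antagonist, stood at 70.3 and 14.3 CPM in the members and at 426 and 398 CPM in the Krt79 gate. Fst was also lower in the outer root sheath gate, at 348 and 212 CPM, in basal cells, at 223 and 118 CPM, and in other epithelial cells, at 428 and 163 CPM. With the Krt75 limit raised to 10 per 10000 the Fst ratio in members was 0.37, in the other direction.

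Some of the largest falls came from 1 cell. The control cell of 22281 UMIs that carried Tchh also held 126 of 126 Soat1 UMIs, 85 of 85 Adh6b UMIs and 96.8% of the Sct UMIs. Soat1, a cholesterol-esterifying enzyme, therefore stood at 123 and 1.30 CPM with no UMI in the other 24 control cells, while the Krt79 gate stood at 590 and 9.04 CPM. Cxcl2 was similar, with 98.2% of its control UMIs in 1 cell of 98540 UMIs. Alad, an enzyme of haem synthesis, was spread over 16 control and 9 induced cells, at 113 and 8.44 CPM, and the Krt79 gate stood at 417 and 47.2 CPM.

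Only 4 of 16 S phase and 4 of 16 G2/M genes reached the level limit, several mainly through the control library. Of these, Mcm7, Pcna and Rrm1, and Top2a, Ube2c and Birc5, were lower, against 3.52% of all tested genes, with 0 higher in either list. Rrm1 missed 2-fold by cell means, at -0.95. Top2a stood at 72.3 CPM in 7 control cells and 3.90 CPM in 4 induced cells. A control cell of 176788 UMIs held 47.3% of the control Top2a UMIs, and without the barcodes of highest doublet score the Top2a ratio over the median gene went from -3.01 to -1.38. The 16 G2/M genes summed to 482 and 122 CPM, against 1187 and 637 CPM in other epithelial cells. With 2 or more G2/M UMIs taken as cycling after thinning to 2000 UMIs, 3 of 24 control members (12.5%, 2.66 to 32.4) and 0 of 34 induced members cycled, where the 95% interval of 0 of 34 reaches 10.3% and 3 counts of 34 are 8.82%. The intervals overlapped, and unthinned shares were 32% and 16.2%. Other epithelial cells stood at 22.2% and 14.3% after thinning.

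Of the regulators and signalling genes few in each list were called, with counts to be read against the 6.11% of all tested genes called higher and 3.52% called lower. Of 19 tested follicle regulators, Nfatc1 and Prdm1 were higher and Tbx1 lower. Nfatc1, a factor of the follicle stem cell compartment, was present in 8 control and 27 induced cells, at 21.5 and 73.4 CPM. Tbx1 stood at 77.2 and 13.6 CPM, with 63.3% of the control UMIs in 1 cell. Sox9 differed by -0.09 by sums and 0.34 by cell means, with medians of 6.75 and 8.01 per 10000, so no 2-fold difference was seen. Of 9 Wnt genes, Fzd1 was higher. Of 11 BMP genes, Fst was lower. Of 8 Notch genes, Notch3, and of 6 FGF genes, Etv4 were higher by sums but not by cell means. Of 22 junction genes, Cdsn and Cldn4 were higher and Gjb6 lower. Of 7 EGF genes Areg was higher, and of 3 hedgehog genes 0 were called. Of 8 tested genes in a list of the miR-200 locus and known miR-200 targets, Gm13648 alone was called, and its ratio over the median gene fell to 0.04 without the barcodes of highest doublet score. The target Zeb1 was at 0 in both libraries. Of 21 stress and early response genes, Klf4 was higher and Myc and Ddit4 lower by sums, and Myc alone was called by cell means too.

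Markers of other cell types were checked beside these differences. The 10 upper follicle markers summed to 12346 and 12299 CPM, mostly Krt79, and the 10 outer root sheath markers to 3861 and 3039 CPM. Of 9 tested upper follicle markers, Plet1, Defb6 and Atp6v1c2 were higher and Cd200 lower, against 6.11% and 3.52% of all tested genes. Of 5 tested outer root sheath markers, Nfatc1 was higher and Tbx1 lower, against the same shares. Of 9 fibroblast markers 0 reached the level tested, and their sum was 51.8 and 12.99 CPM, with Pdgfra, Dpt and Mfap5 at 0. The 8 immune markers summed to 0.977 and 0 CPM, with Ptprc at 0. The 6 endothelial markers summed to 1.95 and 3.90 CPM, and the 6 mural markers to 9.77 and 5.19 CPM. The 8 melanocyte markers summed to 26.4 and 57.1 CPM, nearly all of it Mitf, with Tyr and Mlana at 0. Of 11 sebaceous markers, 3 of 4 tested were lower, Soat1, Plin2 and Mgst1, against 3.52% of all tested genes. The 11 summed to 623 and 196 CPM, with Awat1, Awat2 and Pparg at 0. In other epithelial cells the same sum was 2469 and 149 CPM, with Plin2 at 218 and 17.3 CPM and Mgst1 at 481 and 41.3 CPM. Among the members, Soat1 reached the level limit only through the 1 control cell that held all its UMIs in control members. The inner root sheath markers summed to 440 and 42.2 CPM, of which Tchh made up 417 and 25.3 CPM. Tchh was called lower and had 97.7% of its control UMIs in that same cell. Hair shaft markers summed to 60.6 and 45.4 CPM and matrix markers to 204 and 150 CPM, with 0 called in either list. Spinous markers summed to 11933 and 14192 CPM and basal interfollicular markers to 13661 and 14986 CPM. Krtdap and Sbsn of 6 tested spinous markers were higher, and Itgb4 and Ly6d of 7 tested basal markers, with 0 lower in either list. The 8 granular markers summed to 79.1 and 908 CPM and moved with the cornification genes above. In other epithelial cells the granular sum was 867 and 1310 CPM. The 25 listed cornification genes summed to 3562 and 14201 CPM in members and to 6715 and 13036 CPM in other epithelial cells. The part that cornifying cells among the members play in these differences was not tested.

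Genes that can pair with miR-200b were also compared. A microRNA recognises targets through its seed, bases 2 to 8, shown in capitals in the mature sequence below from RefSeq (GRCm38.p6, chr4:156055685-156055706, minus strand). The sites shown are from the genes with the largest falls among those that were lower by both measures, carried the site in the 3′ UTR and had UMIs in at least 10 control cells. Each is read from the GENCODE vM21 transcript on GRCm38, with the 7-base match CAGTATT in capitals, and 1 site is shown for Smc2 and Sptssa, which hold 2. Ppic, with a fall between those of Sptssa and Bcl2, also meets these criteria, but its site is not printed here.
mmu-miR-200b-3p: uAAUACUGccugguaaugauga
Tuba1b (chr15:98931530-98931552, minus strand): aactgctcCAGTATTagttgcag
Smc2 (chr4:52487016-52487038, plus strand): tctaagtaCAGTATTaatgactt
Sptssa (chr12:54646155-54646177, minus strand): tttgatatCAGTATTttcttaac
Bcl2 (chr1:106540485-106540507, minus strand): gaactggaCAGTATTgtggctgc
Hmgb3 (chrX:71560625-71560647, plus strand): taaataaaCAGTATTacattttt

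The 7-base match on the sense strand was present in the 3′ UTR of 932 of 5459 tested genes. Their median log2 ratio in Krt75 cells was -0.09 relative to the median gene, against 0.02 for genes without it, a difference of -0.11. Of genes with the match, 5.15% were called lower and 3.33% higher, against 3.48% and 6.08% of all genes with a UTR. Prr9, called higher above, also carries the match. For the 224 genes with CAGTATTA, which contains that match, the median was -0.15, with 6.25% lower and 1.34% higher. In cells under 50000 UMIs the difference was -0.01. Smc2, a condensin subunit, stood at 44.0 and 5.19 CPM, and its fall missed 2-fold, at -0.91, without the barcodes of highest doublet score. Bcl2, which blocks cell death, stood at 54.7 and 11.7 CPM, but at 1.22 over the median gene in cells under 50000 UMIs. Hmgb3, a chromatin protein, stood at 93.8 and 24.0 CPM, in 17 cells of each library. In the Krt79 gate, Sptssa stood at 626 and 75.6 CPM, Tuba1b at 485 and 124 CPM, Smc2 at 82.6 and 26.9 CPM, Bcl2 at 44.6 and 24.5 CPM and Hmgb3 at 91.6 and 36.6 CPM. Ppic, a cyclophilin, stood at 62.5 and 12.3 CPM in the members but in the opposite order elsewhere, at 71.7 and 136 CPM in the Krt79 gate, 121 and 157 CPM in the outer root sheath gate and 137 and 202 CPM in basal cells.

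Clustering without the genes of the rule split the members into 2 subgroups of 36 and 26 cells, each with cells of both libraries (16 and 20, 9 and 17). The smaller had lower Krt75, at a median of 8.71 against 16.3 per 10000, and higher Krt79 and Krt14, at 137 against 79.6 and 105 against 28.3. Its leading genes were Klk6, Cst6, Car6, Nupr1, Spink5 and Asprv1. In control cells Klk6, Car6 and Spink5 had medians of 0 in both subgroups, and Cst6 had 54.6 CPM inside and 56.8 CPM outside, so these 4 did not separate the control cells by their medians. The leading genes of the larger subgroup were Slc16a7, Slc39a6, Ccnd1, Foxe1, Nt5dc2 and Cntfr. Expression had been centred within each library before clustering. Without that centring there were 4 subgroups, 2 of them at least 95% from 1 library, and other resolutions gave 1 or 6, so no subgroup is named.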

How the data were processed

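The values were raw UMI counts per gene and barcode as deposited by the authors, made with Cell Ranger 6.0.0 on mm10 per the submitters' processing notes. UMIs were summed per class and library, scaled to CPM and compared as log2 ratios of CPM plus 5 minus the median gene (Python 3.11.15, numpy 2.4.6, scipy 1.17.1, scanpy 1.11.5). The ratio step was tested on simulated data. Intervals are exact (Poisson, conditional binomial or Clopper-Pearson). A count of 0 was given the limit of 3 counts. Epithelial cells had at least 30 UMIs per 10000 of Krt5, Krt14, Krt1, Krt10, Krt17, Krt75, Krt79 and the limited sheath and shaft keratins. The outer root sheath gate needed 3 UMIs per 10000, the basal gate 50 of Krt5 plus Krt14, and the fibroblast gate 50 of Col1a1 plus Col3a1. Scrublet's own threshold marked 3 and 2 barcodes and had not worked, so doublets were kept, and the top 7% were removed in an alternative. Named genes were the 5 markers, the 12 largest ratios each way, the 20 leading genes over other epithelium, leading members of each list and of each subgroup, and, chosen after values were seen, genes not held by 1 cell and the site genes. The members and lists were chosen with earlier results of these data known.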

Additional observations from a re-analysis of the deposited data

How the results depend on the processing

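No paired analysis was possible because each group has 1 library. The count of 533 called genes was 327 with 20 CPM added, 1081 with a mean of 5 CPM and 10 UMIs required, 252 with 50 CPM and 100 UMIs, 842 by means over cells and 233 in cells under 50000 UMIs. With Krt75 at 10 or more per 10000 there were 10 control and 24 induced cells, a control cycling share of 0%, a Gm13648 level of 77.3 CPM and an Fst ratio of 0.37, reversed. Without the barcodes of highest doublet score, Gm13648 stood at 8.17 CPM and the seed difference at -0.19. Without the cell with most Gm13648 UMIs the level was also 8.17 CPM. In cells with at least 50 Krt79 UMIs per 10000, Gm13648 stood at 9.11 CPM and the Tchh ratio reversed to 1.07. In cells under 50000 UMIs, 15 of them control cells, Gm13648 stood at 13.02 CPM, the seed difference at -0.00698, and the ratios of Cxcl2 (1.04), Socs2 (2.05) and Bcl2 (1.22) reversed. Unthinned, 16.2% of induced members cycled. Subgroups numbered 1 at resolution 0.3, 6 at resolution 1.0 and 4 with no library centring. The cause of each change was not tested. The alternatives on Krt79, on depth under 50000 UMIs, on the shared barcode and on single cells were chosen after seeing the data. With 25 and 37 cells, values of genes under 20 CPM rest on few UMIs.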
